A study of Mus musculus with 6 samples.

Results

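The genes described here encode the secreted signals of the Wnt pathway, their receptors, their secreted antagonists and the transcription factors at the end of the pathway. They were chosen by symbol: the Wnt, frizzled (Fzd), Sfrp, Dkk1 to Dkk4 and Rspo1 to Rspo4 families, with Frzb, Wif1, Lrp5, Lrp6, Porcn, Nkd1, Notum, Sp5, Tcf7, Tcf7l1, Tcf7l2, Lef1 and Apc. Of the 54 symbols that the rule covers in the mouse gene table, 53 were measured, of 19938 genes in all, and Tcf7 was not analysed here. RNA came from the small intestine of mouse embryos at E18.5, shortly before birth. The 3 control samples are labelled wildtype, and the other 3 are E-cadherin conditional knockouts, abbreviated cKO. E-cadherin, encoded by Cdh1, is the cadherin that joins epithelial cells at adherens junctions. The sources used here do not give the Cre driver, the deleted exons, the strain or the number of embryos in a sample. The tissue was not separated into epithelium and underlying layers.

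Wnt proteins are lipid-modified ligands that bind frizzled receptors together with Lrp5 or Lrp6. Binding stops the destruction of beta-catenin by a complex that includes Apc, and beta-catenin then acts on target genes through TCF and LEF factors. R-spondins strengthen the response by keeping frizzled receptors on the surface. Sfrp proteins capture ligands, Dickkopf proteins such as Dkk1 block Lrp5 and Lrp6, and Notum removes the ligands' lipid. In the intestine the pathway maintains crypt stem cells, and ligands such as Wnt5a and Wnt2b and the R-spondins are made largely by mesenchymal cells. Beta-catenin is also the cytoplasmic partner of E-cadherin. Some ligands, Wnt5a among them, act mostly without beta-catenin, on cell shape, movement and planar polarity.

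Values are log2 expression as deposited, 1 per probe set and array, and differences are cKO minus control. A gene is said to have risen or fallen where limma's p-value, adjusted over all genes by the Benjamini-Hochberg method, was at or below 0.05. Arrays carry no read depth, so their number limits the precision, and levels of different genes are not set against each other. In whole tissue, a change in the number of cells of a type and a change in RNA per cell cannot be told apart.

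Cdh1 had control values of 9.86, 9.82 and 10.15 and cKO values of 9.70, 8.38 and 8.91, in the order of the replicate numbers, which is kept throughout. The difference of -0.95 (SE 0.31) did not pass (limma adjusted p = 0.088). All cKO values were lower than all control values (exact two-sided permutation p = 0.1, the smallest that 3 against 3 allows). Without cKO 1, the array nearest to the controls, the difference was -1.30 and passed (limma adjusted p = 0.012). Whether the probes lie in the deleted part is not known. The intestinal markers Epcam and Vil1 were bright on all arrays, at 11.81 to 12.05 and 10.80 to 11.43. Both arrays that stood apart were from the cKO. Many values on cKO 2 read low. The median shift of all genes from the control mean was -0.23 there, against -0.02 to 0.03 on the other arrays. For 1231 olfactory, vomeronasal and taste receptor genes, taken as a measure of background, it was -0.37, against -0.06 to 0.09. On cKO 3 the pancreatic enzyme genes Cpa1 and Cela1 read 10.48 and 9.11, against 6.20 to 6.86 elsewhere. The 95th percentile of these receptor genes, 5.79 to 6.36 depending on the array, is called the background.

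Of the 53 genes, 10 rose in the cKO intestine and 0 fell. They were the ligand genes Wnt5a and Wnt2b, the R-spondin gene Rspo3, the receptor genes Fzd1, Fzd2 and Fzd7, the antagonist genes Sfrp1, Dkk2 and Dkk3, and the factor gene Tcf7l2. Their differences ran from 0.51 to 1.19, or 1.43-fold to 2.28-fold. The 10 risen genes are 18.9% of the set, while 6.81% of all genes tested rose and 7.36% fell. The balance over all genes depended on the scaling: 1358 rose and 1467 fell in the values as deposited, against 1830 and 1413 after quantile normalization and 1490 and 1091 after median centring. At an unadjusted p under 0.05, 14 genes of the set were higher and 2 were lower. The share of all genes at this threshold was not counted, so no excess in either direction is read from these counts. The median difference of the set was -0.10, beside -0.09 over all genes. All 10 genes also lay above 0 after quantile normalization and after median centring. Leaving out control 2, control 3 or cKO 3 left 5 of the 10 called, namely Wnt5a, Fzd7, Sfrp1, Dkk2 and Dkk3, and each of these 5 was called with any 1 array left out. With cKO 2 left out all 10 were called, and Tcf7l1 besides.

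**Figure D1:**
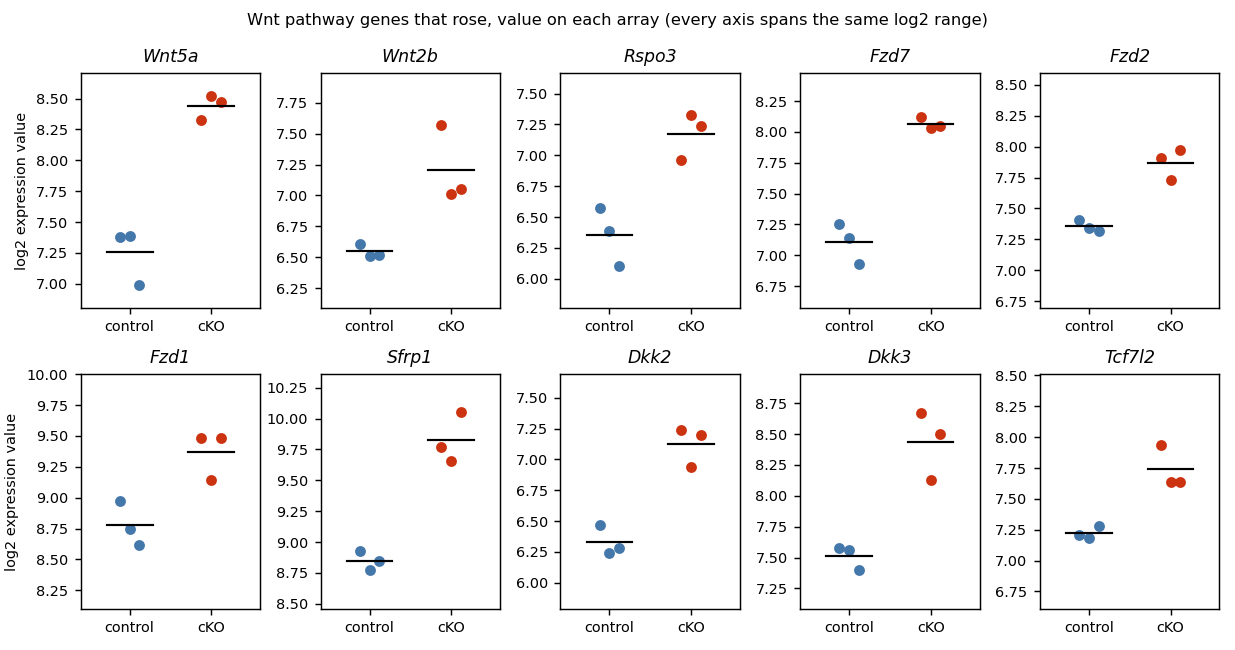
Log2 expression value (vertical axis) of the 10 genes that rose, with a point for each of the 3 control and 3 cKO arrays and a black bar for each group's mean. The points of the groups do not overlap in any of the panels, and the gap is widest for Wnt5a, whose means are 7.25 and 8.44.

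The groups did not overlap in 18 of the 53 genes (34.0%), with all cKO values above all control values in 15 and below in 3. Over all genes tested 35.4% did not overlap, 16.0% above and 19.3% below. The share that did not overlap was thus near that of all genes, but the split by direction was not. In the set 15 of the 18 separated genes lay above. Over all genes, in the values as deposited, fewer lay above (3196) than below (3856). This contrast in direction was not tested. The 43 genes that did not pass differed by -0.91 to 0.52. In 33 of the 53 genes (62.3%) the lowest of the 6 values was that of cKO 2, against 43.3% of all genes tested. All 33 were among the 43, as 0 of the 10 that rose were lowest on cKO 2. The median shift of the 43 from the control mean was 0.06, -0.50 and 0.02 on cKO 1, 2 and 3. For the 10 that rose it was 0.92, 0.61 and 0.88. Of the 53 genes, 32 lay above background on all 6 arrays and 8 on none, these being Wnt2, Wnt8a, Wnt8b, Rspo2, Dkk1, Dkk4, Sfrp4 and Lef1.

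**Figure D2:**
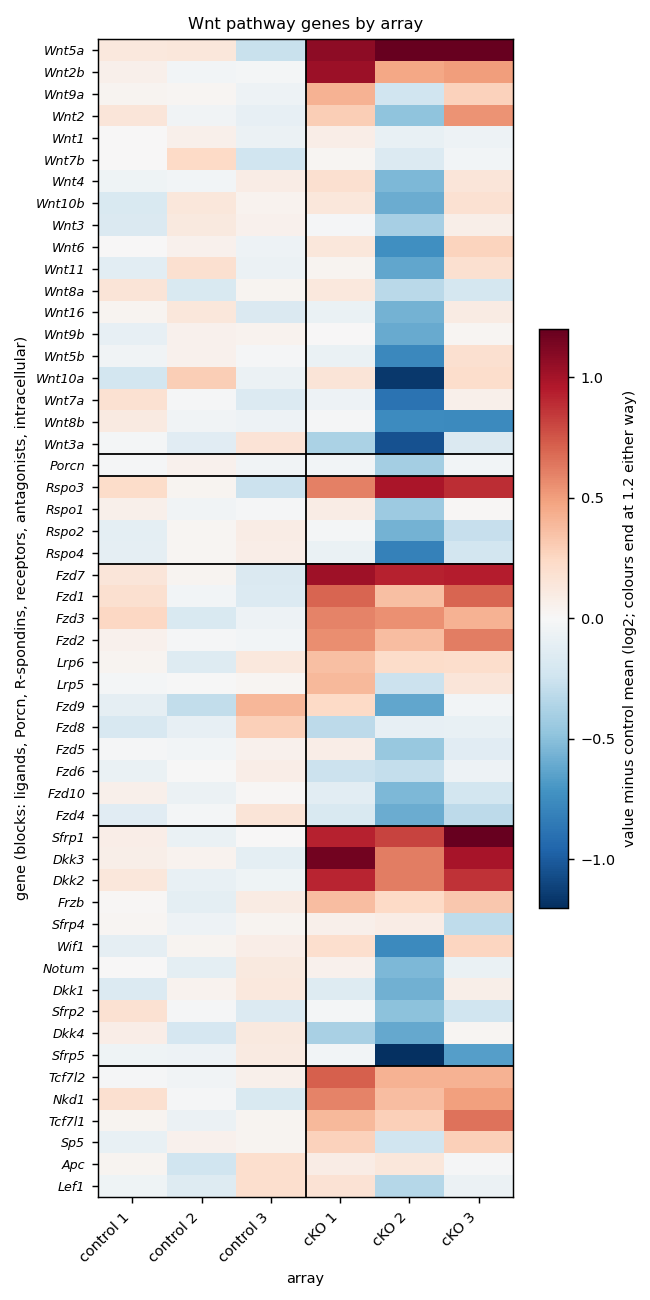
Value minus the control mean (log2, colour) for each of the 53 genes (rows, in blocks by role) on each of the 6 arrays (columns). The genes that rose are red on all 3 cKO arrays, while most others are pale on cKO 1 and cKO 3 and blue on cKO 2, where the 43 genes that did not pass had a median of -0.50.

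Among the 19 Wnt ligand genes, 2 rose (10.5%, beside 6.81% of all genes) and 0 fell. Wnt5a, the ligand of beta-catenin-independent signalling in gut mesenchyme, read 7.38, 7.39 and 6.99 in the controls against 8.33, 8.52 and 8.47 in the cKO. The 3 cKO values lay close together, and the lowest of them was 8.33 against a highest control of 7.39. The means were 7.25 ± 0.23 and 8.44 ± 0.10 (SD, n = 3), which differ by 1.19 (SE 0.14, limma adjusted p = 0.0029) or 2.28-fold. Wnt5a was called under all 14 alternative settings, with differences of 1.06 to 1.28.

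Wnt2b, a ligand of the beta-catenin branch, read 6.61, 6.51 and 6.52 in the controls and 7.57, 7.01 and 7.05 in the cKO. The cKO 1 value stood above the other cKO values, and the groups did not overlap. The means of 6.55 ± 0.06 and 7.21 ± 0.31 (SD, n = 3) differ by 0.66 (SE 0.17, limma adjusted p = 0.039). This call was lost without control 1, control 2, control 3 or cKO 3 (limma adjusted p = 0.087, 0.136, 0.128 and 0.068).

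The other 17 ligand genes did not pass. Wnt3a and Wnt8b had the smallest p among them. Wnt3a, a ligand of the beta-catenin branch, read 6.20, 6.08 and 6.38 in the controls and 5.84, 5.17 and 6.05 in the cKO. All its cKO values lay below all control values (limma adjusted p = 0.175). Only 1 of the 6 values was above background, so no size of its difference is given. Wnt8b was not above background on any array, at 5.93 to 6.09 in the controls and 5.22 to 5.97 in the cKO. The remaining 15 differed by -0.29 to 0.15 with overlapping groups, and 14 of them were lowest on cKO 2. They include Wnt3, the ligand of Paneth cells, at -0.11 (95% interval -0.49 to 0.26), and Wnt6 and Wnt9b, at -0.11 and -0.19. Wnt4 had a second probe set, which differed by -0.21 where the one used differed by -0.07. Porcn, the acyltransferase that adds the lipid to Wnt ligands, differed by -0.16 (95% interval -0.48 to 0.17). The 4 genes Wnt3, Wnt4, Wnt6 and Wnt9b were named after their values were seen.

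Of the 4 R-spondin genes, 1 rose (25%, beside 6.81% of all genes), which was Rspo3. This amplifier of Wnt signals, made by stromal and lymphatic cells around the crypts, read 6.57, 6.39 and 6.10 in the controls and 6.96, 7.33 and 7.24 in the cKO. The groups did not overlap, although the nearest values, control 1 and cKO 1, were close, and control 3 lay below background. The means of 6.35 ± 0.24 and 7.18 ± 0.19 (SD, n = 3) differ by 0.82 (SE 0.16, limma adjusted p = 0.017). Rspo3 missed the threshold when control 2, control 3 or cKO 3 was left out (limma adjusted p = 0.066, 0.058 and 0.062). Rspo1 differed by -0.11 (95% interval -0.48 to 0.26), and Rspo4 by -0.37 (95% interval -0.83 to 0.09). Rspo2 was below background on all arrays. Lgr4 and Lgr5, receptors for R-spondins, differed by -0.20 (limma adjusted p = 0.325) and 0.01 (0.967).

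Among the 10 frizzled receptor genes, Fzd1, Fzd2 and Fzd7 rose, which together make up 1 subfamily of closely related receptors. With Lrp5 and Lrp6 included, 3 of 12 receptor genes rose (25%), beside 6.81% of all genes. Fzd7, the frizzled known for its part in intestinal stem cells, read 7.25, 7.14 and 6.93 in the controls and 8.12, 8.03 and 8.05 in the cKO. All 3 cKO arrays were alike and lay well above the controls. The means of 7.11 ± 0.16 and 8.07 ± 0.05 (SD, n = 3) differ by 0.96 (SE 0.12, limma adjusted p = 0.0033), and Fzd7 was called under all 14 alternative settings.

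Fzd1 read 8.97, 8.75 and 8.62 in the controls and 9.48, 9.14 and 9.48 in the cKO, a difference of 0.59 (SE 0.15, limma adjusted p = 0.040). The cKO 2 value was the lowest of its group and still above control 1, the highest control. Fzd2 read 7.41, 7.34 and 7.32 against 7.91, 7.73 and 7.97, a difference of 0.51 (SE 0.11, limma adjusted p = 0.025). These groups were apart as well, with narrow controls (SD 0.05, n = 3). Both calls were lost without any 1 of the arrays other than cKO 2 and with the replicate number as a block (limma adjusted p = 0.059 for Fzd1 and 0.065 for Fzd2). The transcripts of related frizzled genes resemble each other in parts, and cross-hybridisation between their probes was not tested.

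The remaining frizzled genes did not pass. Fzd3, which acts mainly in planar polarity, read 6.28, 5.85 and 5.97 in the controls and 6.63, 6.58 and 6.45 in the cKO, a difference of 0.52 (95% interval 0.19 to 0.85, limma adjusted p = 0.052). It was called after quantile normalization, after median centring, without the dimmest 25% of genes, with array weights and without control 1 (limma adjusted p = 0.018 to 0.044), and 2 of its control values lay below background. Fzd4, the receptor of vascular Norrin signalling, read 8.23, 8.34 and 8.52 in the controls and 8.18, 7.77 and 8.05 in the cKO, with all cKO values lower and a difference of -0.36 (95% interval -0.71 to -0.02, limma adjusted p = 0.154). Fzd5, the main frizzled of the intestinal epithelium, differed by -0.17 (95% interval -0.53 to 0.19) and was named after its value was seen. The co-receptor genes Lrp6 and Lrp5 differed by 0.27 (95% interval -0.02 to 0.55) and 0.09 (95% interval -0.30 to 0.49).

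The sequence before the start site is shown for Fzd7 and Fzd1, of the receptor genes that rose. TCF and LEF factors bind DNA at a short core motif. The form searched for here was CTTTGA on 1 strand and TCAAAG on the other. Other forms of the motif were not searched for in any window. The 250 bases upstream are from RefSeq (GRCm38.p6), written 5′ to 3′ on the gene's strand with this form of the motif in capitals. That of Fzd7 is chr1:59481897-59482146, plus strand, and that of Fzd1 is chr5:4758217-4758466, minus strand.
Fzd7: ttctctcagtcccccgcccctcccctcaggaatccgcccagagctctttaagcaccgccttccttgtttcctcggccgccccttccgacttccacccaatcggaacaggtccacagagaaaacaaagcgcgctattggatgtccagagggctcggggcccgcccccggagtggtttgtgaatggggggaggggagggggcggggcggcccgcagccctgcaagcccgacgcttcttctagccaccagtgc
Fzd1: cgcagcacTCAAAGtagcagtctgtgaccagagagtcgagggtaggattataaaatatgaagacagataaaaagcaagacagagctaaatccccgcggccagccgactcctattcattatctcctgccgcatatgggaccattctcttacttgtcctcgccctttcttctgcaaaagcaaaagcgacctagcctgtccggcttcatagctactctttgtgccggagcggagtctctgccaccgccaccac

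The Fzd1 match begins 242 bases before the start site, and the Fzd7 window, with 65.2% G and C, holds neither CTTTGA nor TCAAAG. Of the 53 genes, 34 had promoter windows in the table, 41 windows in all. The motif stood in 7 of these 41 windows (17.1%), beside 13.8% of all 32851 windows of the same length. Of the 10 genes that rose, 5 had a window (Fzd7, Fzd1, Wnt2b, Dkk2 and Tcf7l2) and 1 of them, Fzd1, had a match. The other 6 genes with a match, Sp5, Frzb, Lef1, Wnt5b, Wnt11 and Dkk1, did not pass the test. For 3 of these the 40 bases around a match are given, so that a gene that rose can be set beside genes with the same letters that did not pass: Sp5 (chr2:70474802-70474841, plus strand), Lef1 (chr3:131156097-131156136, plus strand, before an alternative start) and Wnt11 (chr7:98835045-98835084, plus strand).
Sp5: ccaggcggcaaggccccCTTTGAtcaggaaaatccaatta
Lef1: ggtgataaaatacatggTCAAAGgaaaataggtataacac
Wnt11: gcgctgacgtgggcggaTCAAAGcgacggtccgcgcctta

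Of 11 secreted antagonist genes, 3 rose (27.3%, beside 6.81% of all genes) and 0 fell. Sfrp1, which binds Wnt ligands outside the cell, read 8.93, 8.77 and 8.85 in the controls and 9.77, 9.66 and 10.05 in the cKO. The lowest cKO value lay above the highest control by more than the range of either group. The means were 8.85 ± 0.08 and 9.83 ± 0.20 (SD, n = 3), which differ by 0.98 (SE 0.14, limma adjusted p = 0.0043) or 1.97-fold.

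Dkk3, a divergent member of the Dickkopf family, was placed among the antagonists by its symbol. It read 7.58, 7.56 and 7.40 in the controls and 8.67, 8.13 and 8.50 in the cKO, with cKO 2 the lowest of its group. The difference was 0.92 (SE 0.16, limma adjusted p = 0.0098). Dkk2, which binds Lrp5 and Lrp6, read 6.47, 6.24 and 6.28 against 7.24, 6.94 and 7.20. Only control 1 of its controls was above background, while all 3 cKO values were. Its difference was 0.80 (SE 0.13, limma adjusted p = 0.0081). Dkk3 was called under all 14 alternative settings, as was Sfrp1, and Dkk2 under all 13 in which it was tested.

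The other 8 antagonist genes did not pass. Sfrp5, an epithelial antagonist, had the widest spread of the set: it read 6.98, 6.97 and 7.14 in the controls and 7.0, 5.0 and 6.37 in the cKO. The cKO 1 value lay among the controls and cKO 2 far below them, and the difference was -0.91 (95% interval -1.96 to 0.14, limma adjusted p = 0.233). Frzb, a secreted ligand trap of the Sfrp family, did not pass (limma adjusted p = 0.118). It had all control values and 2 of 3 cKO values below background, so no size of its difference is given. All its cKO values lay above all control values, and it was called higher after quantile normalization and with array weights. The remaining 6 (Dkk1, Dkk4, Notum, Sfrp2, Sfrp4 and Wif1) differed by -0.33 to -0.05 with overlapping groups, and 5 of them were lowest on cKO 2.

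Among the 6 intracellular and nuclear genes, 1 rose (16.7%, beside 6.81% of all genes), which was Tcf7l2. This gene for the main TCF factor of the intestinal epithelium read 7.21, 7.18 and 7.28 in the controls and 7.94, 7.64 and 7.64 in the cKO. The controls lay within 0.10 of each other and below all cKO values. The difference was 0.52 (SE 0.13, limma adjusted p = 0.034), a call lost when any 1 array other than cKO 2 was left out and with the replicate number as a block (limma adjusted p = 0.073).

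Tcf7l1, mostly a repressing TCF factor, read 6.58, 6.48 and 6.58 against 6.94, 6.83 and 7.20, a difference of 0.44 (95% interval 0.14 to 0.75, limma adjusted p = 0.065). Nkd1, a Dishevelled-binding feedback inhibitor, read 7.95, 7.74 and 7.57 against 8.35, 8.12 and 8.25, a difference of 0.49 (95% interval 0.17 to 0.81, limma adjusted p = 0.056). For both the groups were apart and the test was narrowly missed. Tcf7l1 passed after quantile normalization, after median centring, without the dimmest 25% of genes, with array weights and without cKO 2 (limma adjusted p = 0.0035 to 0.041). Nkd1 passed after quantile normalization, after median centring, without the dimmest 25% or the dimmer 50% of genes, with array weights and with a trended, robust prior (limma adjusted p = 0.0097 to 0.037). Apc, the scaffold of the beta-catenin destruction complex, differed by 0.07 (95% interval -0.26 to 0.40). Sp5, a direct target of the pathway in many tissues, differed by 0.11 (95% interval -0.28 to 0.49), with 2 of its control values below background. Lef1, which encodes the LEF factor, was below background on all arrays.

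**Figure D3:**
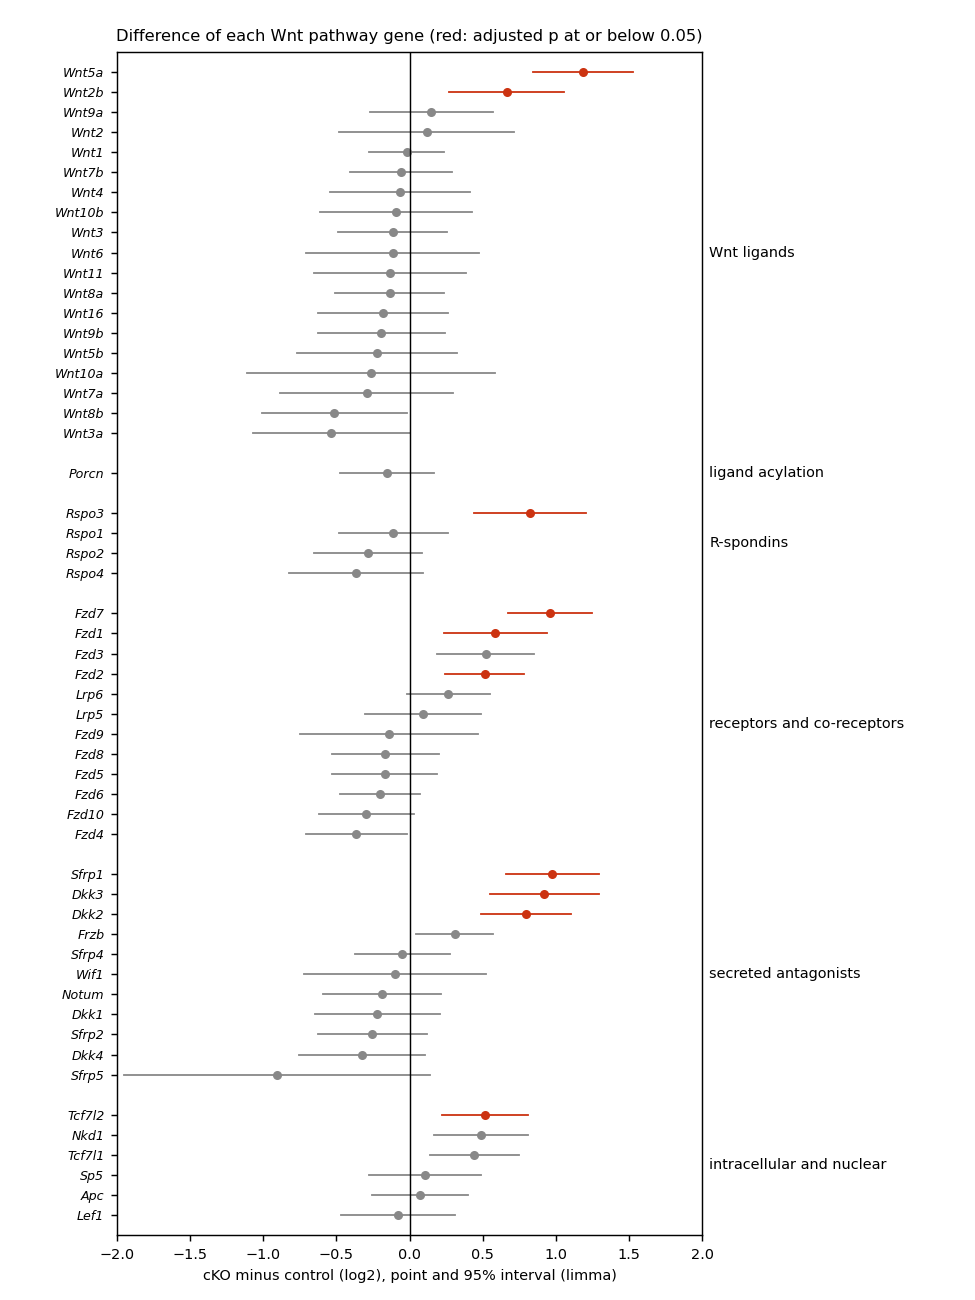
Difference between cKO and control (log2, horizontal axis) with its 95% interval from limma for all 53 genes, grouped by role. The 10 red genes lie to the right of 0, from 0.51 to 1.19, and no gene whose interval lies to the left of 0 passed the threshold after adjustment.

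In the remaining genes of the pathway, grouped in 4 lists with 86 measured genes outside the set, 14 rose (16.3%) and 1 fell, beside the 6.81% and 7.36% of all genes. The count of 14 was 9 without control 1, 6 without control 2, 7 without control 3 and 6 without cKO 3, and 24 with array weights, which also raised the count that fell to 6. Of 33 genes for signal transduction, 2 rose (6.06%, near the share of all genes) and 1 fell, with a median of -0.03. Dact1 rose and Dact2 fell, 2 related genes for Dishevelled-binding proteins. Dact1 read 6.94, 6.97 and 6.89 in the controls and 7.71, 7.62 and 7.52 in the cKO, a difference of 0.68 (SE 0.11, limma adjusted p = 0.0070). Dact2 read 7.84, 7.67 and 7.70 against 6.83, 6.73 and 6.58, a difference of -1.02 (SE 0.12, limma adjusted p = 0.0024). The groups of both were far apart in opposite directions. Csnk1e, a kinase gene of the Dishevelled step, rose by 0.67 (SE 0.13, limma adjusted p = 0.014) and missed the threshold if control 2, control 3 or cKO 3 was left out. Wls, the carrier that brings Wnt ligands to the cell surface, differed by 0.69 (95% interval 0.23 to 1.16, limma adjusted p = 0.060). Ctnnb1, which encodes beta-catenin itself, had a difference of -0.07 (95% interval -0.34 to 0.19).

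Of 16 genes for receptor turnover and R-spondin or proteoglycan receptors, 2 rose (12.5%, beside 6.81% of all genes) and 0 fell. Their median was -0.01. Those that rose were the proteoglycan genes Sdc1 at 0.75 (SE 0.11, limma adjusted p = 0.0062) and Gpc4 at 0.44 (SE 0.11, limma adjusted p = 0.034). Gpc4 was not called without any 1 array other than cKO 2 or with the replicate number as a block. Gpc3 and Tspan12 differed by -0.30 (limma adjusted p = 0.125) and 0.34 (limma adjusted p = 0.243).

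Of 20 genes of beta-catenin-independent signalling and planar polarity, 4 rose (20%, beside 6.81% of all genes) and 0 fell. Their median was 0.06. Ptk7, a planar polarity receptor gene with means of 7.61 ± 0.09 and 8.37 ± 0.05 (SD, n = 3), rose by 0.76 (SE 0.11, limma adjusted p = 0.0048). Daam2, a formin gene, rose by 0.75 (SE 0.13, limma adjusted p = 0.0083), with all 3 control values below background, so that the measured change has only a lower bound of 0.53 (at least 1.44-fold, from control values raised to background). Prickle2 rose by 0.59 (SE 0.13, limma adjusted p = 0.028) and Ror2, a receptor for Wnt5a, by 0.50 (SE 0.13, limma adjusted p = 0.042). The count of 4 fell to 2 without control 1, 2 or 3 or cKO 3 and with the replicate number as a block, and Prickle2 and Ror2 were the genes that dropped out. Ror2 dropped out without cKO 1 as well.

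Of 25 Wnt target genes of the intestinal epithelium, 6 rose (24%) and 0 fell, beside 6.81% and 7.36% of all genes. Their median was 0.27, and Nkd1, Sp5, Notum and Lef1 among them also belong to the set. Cd44, a surface glycoprotein of crypt cells and of many stromal and immune cells, read 7.56, 7.56 and 7.55 in the controls and 9.17, 9.41 and 9.73 in the cKO, a difference of 1.88 (SE 0.16, limma adjusted p = 0.000797). Myc rose by 1.04 (SE 0.16, limma adjusted p = 0.0063), Smoc2, a stem cell gene also expressed in fibroblasts, by 0.72 (SE 0.15, limma adjusted p = 0.019) and Ephb3 by 0.65 (SE 0.13, limma adjusted p = 0.019). Leaving out control 2 or cKO 3 ended the calls of both Smoc2 and Ephb3, leaving out control 3 that of Smoc2 and leaving out control 1 that of Ephb3. Whether these rises are tied to Wnt signalling was not tested. Axin2 differed by 0.07 (95% interval -0.37 to 0.51, limma adjusted p = 0.829) and Lgr5 by 0.01 (95% interval -0.36 to 0.39, limma adjusted p = 0.967). The intervals allow a change of up to 0.51 for Axin2. Olfm4, a stem cell gene of the crypt, had the lowest difference of the list: it read 9.38, 9.92 and 10.32 in the controls against 9.02, 6.83 and 8.35 in the cKO. The groups did not overlap, and the difference of -1.81 (95% interval -3.04 to -0.57, limma adjusted p = 0.063) missed the threshold. Olfm4 was named after its values were seen. In this list 1 gene fell after median centring, without the dimmest 25% or the dimmer 50% of genes and without cKO 1, and 2 fell with array weights. The count of 6 fell to 3 without control 1, to 2 without control 2, to 3 without control 3 and to 2 without cKO 3, and rose to 11 with array weights.

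**Figure D4:**
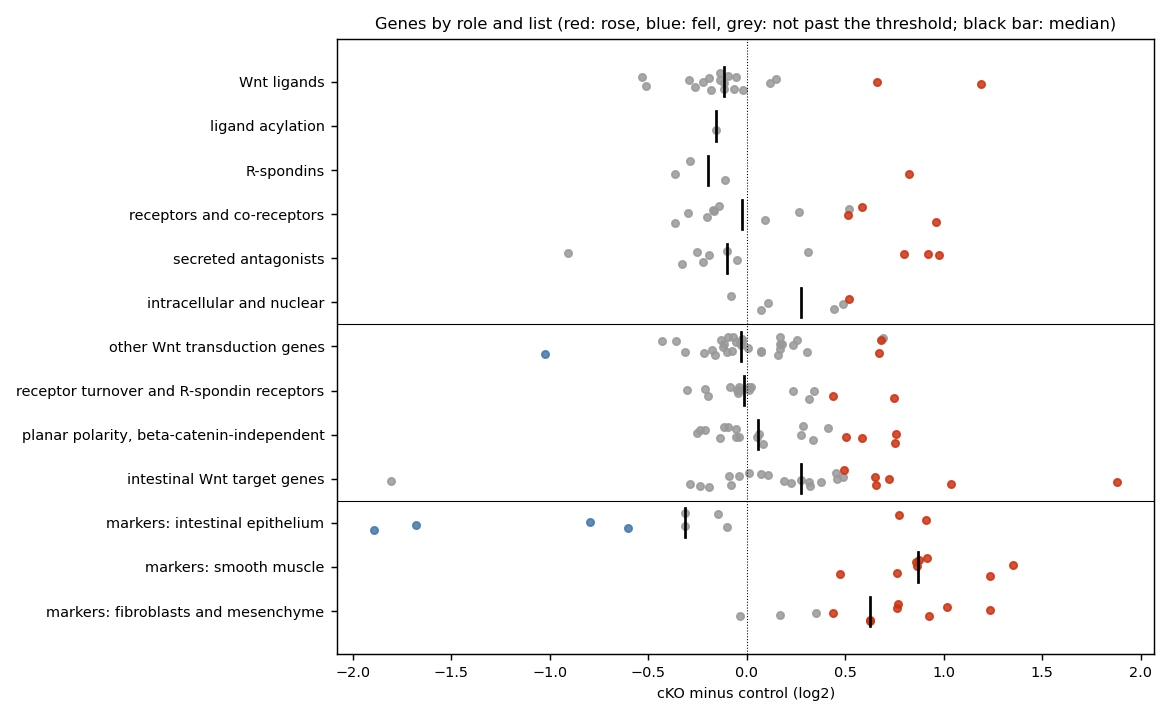
Difference between cKO and control (log2, horizontal axis) of each gene in the 6 roles, in the 4 other pathway lists and in 3 lists of cell type markers, with a black bar at each list's median. All 8 smooth muscle markers and 8 of 11 fibroblast and mesenchyme markers rose, with medians of 0.87 and 0.62, while the medians of the roles lie between -0.20 and 0.28.

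Of the marker lists for cell types under the epithelium, those of smooth muscle and of fibroblasts and mesenchyme had the largest shares of risen genes. All 8 smooth muscle markers rose (median 0.87), and their summed level, as log2 of the sum of linear values, was 13.77 to 14.03 in the controls and 14.61 to 14.73 in the cKO. Of 11 fibroblast and subepithelial mesenchyme markers 8 rose (median 0.62), with a summed level of 13.49 to 13.71 in the controls and 14.14 to 14.36 in the cKO. Pdgfra, a growth factor receptor gene of the subepithelial mesenchyme, rose by 1.23 (SE 0.14, limma adjusted p = 0.0023), whereas Foxl1, a marker of Wnt-producing subepithelial cells, differed by -0.04 (95% interval -0.36 to 0.28). Among mesothelial markers 3 of 5 rose, among macrophage markers 4 of 7 and among markers of interstitial cells of Cajal 2 of 4. The counts were 2 of 5 for neutrophil, 1 of 6 for enteric neuron, 0 of 7 for endothelial and 0 of 4 for glial markers. Over all genes tested 6.81% rose and 7.36% fell. In the epithelial list 4 of 10 fell (Cdx1, Cdx2, Fabp1 and Fabp2) and 2 rose (Krt8 at 0.91 and Krt19 at 0.77). Epcam and Cdh17 differed by -0.10 and -0.15 and did not pass. The summed level of the list was 14.92 to 15.18 in the controls and 14.75 to 14.83 in the cKO. Bright genes weigh most in this sum, among them Fabp1 and Fabp2 (control means 12.50 and 12.47), which differed by -1.89 and -1.68. Of the neutrophil genes counted as risen, S100a8 was above background on 1 of the 6 arrays and Ly6g on the 3 cKO arrays alone, so for S100a8 no rise above background was measured. No marker in these lists had a value of 0. The part that these cell types play in the differences of the Wnt genes was not tested. Without control 2 or control 3 the smooth muscle count fell to 4 each, and without cKO 3 to 5. The fibroblast count fell to 5 without control 1, to 3 without control 2 or control 3, and to 4 without cKO 1 or cKO 3. Leaving out single arrays moved the shorter lists as well: the neutrophil count went to 0 without any 1 control (and without the dimmest 25% of genes), to 1 without cKO 1, the mesothelial count to 1 without control 3 and to 2 without control 1 or cKO 3, the Cajal count to 0 without control 2 or cKO 3 and to 1 without control 3, and the neuron count to 0 without any 1 array other than control 1, while the macrophage count stayed at 4 or 5.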

How the data were processed

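Small intestine RNA of 3 control and 3 cKO samples was measured on Affymetrix Mouse Gene 1.0 arrays after whole-transcript sense labelling, per the labels. The authors used dChip, per the series design text, and deposited log2 expression values, 1 per probe set and array (the log2 scale was read from the values' range). The sources used here do not give the dChip version or its normalization. Of 35512 probe sets, 21789 had 1 symbol in the platform annotation, 1621 several and 12102 none listed. The brightest probe set over the 6 arrays stood for each of 19938 genes. Values were used as deposited and fitted with limma 3.58.1 in R 4.3.3 (lmFit and eBayes, two-sided, no covariate), which was tested on simulated data. Nothing says that samples came from separate embryos, so the p-values refer to the spread among these 6 samples, part of which may be technical.

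The members and gene lists were chosen with earlier results of these data known. Each risen member is given on every array, the others by range, except for the 2 of each role with the smallest p, Lrp5, Lrp6, Tcf7l2 and Apc. Outside the set, the named genes are Cdh1, Ctnnb1, Lgr5, Axin2, Myc and up to 4 genes of each pathway list with the smallest p. Genes named besides these (Sp5, Wnt3, Wnt4, Wnt6, Wnt9b, Fzd5, Fzd10, Olfm4, Lgr4, Pdgfra, Foxl1, and the markers of tissue and pancreas) were chosen after their values were seen. The background level from receptor genes was also chosen after the data were seen. The alternatives were 2 other normalizations, 2 filters on dim genes, array weights, a trended and robust prior, the mean of all probe sets per gene, the replicate number as a block and leaving out each of the 6 arrays. Promoter windows were searched for the motif in Python 3.11.15. The labels name no genome build, so coordinates are printed for the RefSeq promoter windows alone.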

Additional observations from a re-analysis of the deposited data

How the results depend on the processing

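Of the 10 genes that rose, Wnt5a, Fzd7, Sfrp1, Dkk2 and Dkk3 were called under every alternative in which they were tested, and all 10 kept their direction. The count of risen members was 10, and 5 to 11 when 1 array was left out (5 without control 2, control 3 or cKO 3). Array weights added 1 member that fell, Wnt8b, which was below background on all arrays, and so did leaving out cKO 1 (0 to 1 over the arrays left out). Over the whole array the number of genes called was 2825, 5834 with array weights and 1226 to 2713 with 1 array left out. Cdh1 passed the threshold without the dimmer 50% of genes (-0.95), with array weights (-0.89) and without cKO 1, and ranged from -1.30 to -0.64 with 1 array left out. Of 982 gene values under the alternatives 50 changed sign, 15 of them without cKO 2, and 0 of these 50 belonged to the 10 genes.

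The labels number the samples 1 to 3 in each group, but the deviations of same-numbered samples correlated at -0.08, 0.13 and 0.14 over genes, so the numbers were not taken as pairs. With the replicate number as a block, the number of genes called was 2212, 7 members rose and 0 fell, Fzd1, Fzd2 and Tcf7l2 were not called, and Cdh1 differed by -0.95 (adjusted p = 0.064). With 3 arrays per group, calls of genes with differences of 0.51 to 0.82 (Fzd1, Fzd2, Tcf7l2, Wnt2b and Rspo3) depended on 1 array, and genes under the receptor background have no measured level of their own.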

Other observations

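A further 24 genes known to modulate Wnt signals, chosen after earlier results of these data were known, are given as values. Of these, 2 rose (8.33%, near the 6.81% of all genes that rose) and 1 fell, and their median was -0.08. Cxxc5, an inhibitor that binds Dishevelled, had means of 8.97 ± 0.09 and 7.75 ± 0.11 (SD, n = 3) and fell, with a difference of -1.23 (SE 0.12, limma adjusted p = 0.0012). Sulf1, which removes sulfate groups from heparan sulfate and so frees Wnt ligands, rose by 0.99 (SE 0.21, limma adjusted p = 0.022). Igfbp4, an insulin-like growth factor binding protein that also binds frizzled and Lrp6, rose by 0.89 (SE 0.15, limma adjusted p = 0.0080). The other 21 genes, among them the related Cxxc4 and Sulf2, did not pass.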
